A study of Mus musculus with 27 samples.

Results

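The genes described here encode subunits of ligand-gated ion channels: the receptors for glutamate, glycine and GABA and the nicotinic receptors for acetylcholine. They were chosen by name, with earlier results of these data known. Of the 37 chosen, 36 were measured among the 22180 genes that could be named on the array. Grin1, the subunit that NMDA receptors share, was not named in the probe table and is not analysed here. Where a gene had several rows, the row with the highest mean was taken. The samples were 27 prostate tumours, each from 1 male F2 mouse, hybridised to 1 array per tumour. All males carried the TRAMP transgene and descended from a cross of PWK/PhJ with C57BL/6-Tg(TRAMP)8247Ng/J; their background was mixed. They were followed to 30 weeks or to a humane endpoint. The TRAMP transgene places SV40 T antigens under the probasin promoter, which is active in prostate epithelium, and PWK/PhJ is a wild-derived strain; both statements are general knowledge. The labels place every tumour in 1 group, with no untreated or non-transgenic tissue, so the data describe how the tumours differed from each other. In RNA from whole tumours, fewer cells of a type and less RNA per cell cannot be told apart.

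Ligand-gated channels open when a transmitter binds and let ions pass within milliseconds. AMPA, kainate and NMDA receptors are assembled from several subunits and pass cations when glutamate binds. GABA-A and glycine receptors pass chloride, and nicotinic receptors pass cations. These genes are best known from neurons, and several are also used by endocrine cells, which release hormones in response to changes in membrane potential. TRAMP tumours are known to include neuroendocrine carcinomas. The transcription factor Rest represses many neuronal genes in other tissues through a DNA element called RE1.

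The promoters of 5 members are shown because the results below turn on their genes: Gria2, Glrb and Gabra5 were lowest in the same 4 tumours, Glra2 varied most, and Gabrp varied most among the GABA-A subunits. Each sequence runs 5′ to 3′ on the strand of its gene, from 250 bases before the start to 50 bases after it, as RefSeq gives the start in GRCm38.p6. Capitals mark a RE1-like match in Gria2 (AGCACC, any 2 bases, then GGACAG, here on the opposite strand), the shorter GGACAG on the opposite strand in Glrb, Gabra5 and Glra2, and the E-box CAGCTG in Gabrp.
Gria2, chr3:80802786-80803085, minus strand: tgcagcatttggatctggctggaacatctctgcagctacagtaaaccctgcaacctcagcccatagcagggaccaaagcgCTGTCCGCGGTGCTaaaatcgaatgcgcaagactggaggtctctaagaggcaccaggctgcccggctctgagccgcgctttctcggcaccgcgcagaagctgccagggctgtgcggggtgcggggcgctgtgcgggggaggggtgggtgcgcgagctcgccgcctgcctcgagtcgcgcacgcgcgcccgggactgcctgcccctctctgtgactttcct
Glrb, chr3:80913611-80913910, minus strand: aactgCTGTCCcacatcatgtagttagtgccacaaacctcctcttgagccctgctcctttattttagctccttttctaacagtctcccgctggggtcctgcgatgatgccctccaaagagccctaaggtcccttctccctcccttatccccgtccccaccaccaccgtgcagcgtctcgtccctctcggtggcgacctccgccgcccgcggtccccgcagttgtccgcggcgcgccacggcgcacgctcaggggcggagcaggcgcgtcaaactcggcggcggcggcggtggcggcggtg
Gabra5, chr7:57510010-57510309, minus strand: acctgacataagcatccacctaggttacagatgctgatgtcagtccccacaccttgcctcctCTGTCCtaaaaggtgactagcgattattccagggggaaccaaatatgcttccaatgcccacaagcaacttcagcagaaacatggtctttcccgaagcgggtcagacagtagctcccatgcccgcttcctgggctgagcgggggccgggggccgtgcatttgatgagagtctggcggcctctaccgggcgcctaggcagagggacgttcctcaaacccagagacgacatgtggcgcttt
Glra2, chrX:165327344-165327643, minus strand: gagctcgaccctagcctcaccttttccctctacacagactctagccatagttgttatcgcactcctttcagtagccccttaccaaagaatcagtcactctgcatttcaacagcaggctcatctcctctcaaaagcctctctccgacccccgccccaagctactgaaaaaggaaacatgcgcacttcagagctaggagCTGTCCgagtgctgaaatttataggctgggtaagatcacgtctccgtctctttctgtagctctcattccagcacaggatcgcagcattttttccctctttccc
Gabrp, chr11:33578908-33579207, minus strand: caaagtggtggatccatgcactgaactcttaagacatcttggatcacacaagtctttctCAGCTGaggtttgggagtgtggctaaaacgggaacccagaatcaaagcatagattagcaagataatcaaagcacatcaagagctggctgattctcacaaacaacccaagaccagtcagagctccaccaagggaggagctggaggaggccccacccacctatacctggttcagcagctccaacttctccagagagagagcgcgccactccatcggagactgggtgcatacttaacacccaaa
Windows were found for 28 of the 37 genes, 33 windows in all among 32851. The RE1-like match, searched on both strands like the other motifs, was in 17 of all windows (0.0517%) and among the members only in Gria2, where it lay 170 to 157 bases before the start. GGACAG, which this longer motif contains, is common: it was in 22.2% of all windows and in 13 of the 33 member windows. CAGCTG was in 16.3% of all windows and in 4 member windows, those of Chrna1, Chrnb4, Gabrp and Glra3. Neither the RE1-like motif with a C before it (12 of all windows, 0.0365%) nor TTCAGCACC, a form of its left part (122, 0.371%), was in a member window. A match is a run of letters and was not tested as a binding site, and these motif forms were settled on with the member promoters in view. Member windows held a median of 13 CpG dinucleotides, against 7 in all windows, and 27 of the 33 were above that median. Glrb held 30, Gria2 26, Gabra5 13, Glra2 9 and Gabrp 4.

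Values are log2 levels. A level under 5.79, the median of the mean levels of all rows on the array, is called dim. The subunit genes spread widely: 15 of 36 had a standard deviation over 1 log2 unit among the tumours (41.7%), against 5.04% of all genes, and their median SD was 0.98 against 0.30. Dim in every tumour were 4 members (Grin2a, Glra1, Gabrb2 and Chrna1), or 11.1% against 28.6% of all genes. Another 7 members, or 19.4% against 45.0%, were dim in none: Grik4, Grik5, Grin2d, Glrb, Gabrd, Chrna4 and Chrna7. The remaining 25 were dim in some tumours and not in others. Members were chosen with earlier results of these data known, so these shares do not describe whole receptor families. Of 19 further subunits of the same superfamilies, 4 had an SD over 1 log2 unit (21.1%), and their median SD was 0.23. Among those 19, 11 were dim in every tumour (57.9%). The number of members at or above 5.79 ran from 9 in tumour P471, 10 in P966 and 12 in P1276 to 25 in P237 and in P609, while the same share over all genes stayed between 56.4% and 59.2%.

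**Figure D1:**
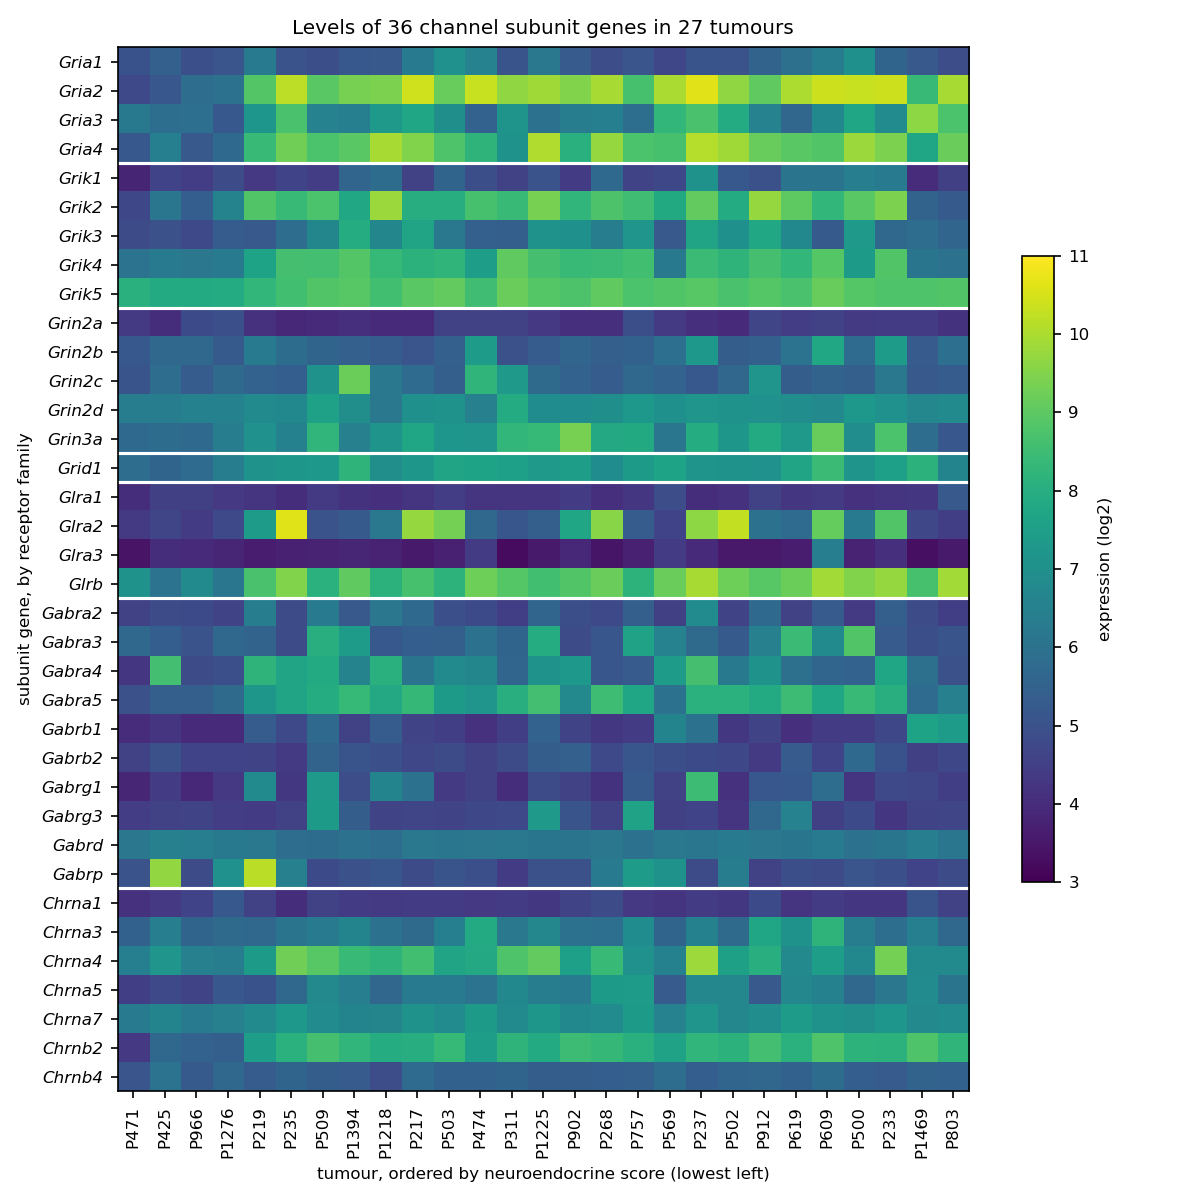
Log2 level (colour, 3 to 11) of each of 36 subunit genes (rows, white lines between receptor families) in each of 27 tumours (columns, ordered by neuroendocrine score with the lowest at the left). Gria2, Gria4 and Glrb are darkest in the 4 tumours at the left, and Grin2a, Glra1, Gabrb2 and Chrna1 are dim throughout.

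Marker lists were used to describe what else differed between the tumours; a list's score is the log2 level relative to each gene's average across tumours, averaged over its genes. The neuroendocrine score (17 genes) fell into separate clusters: P471 at -2.87, P425 at -2.02, P966 at -2.01 and P1276 at -1.56 lay below the other 23, which ran from -0.20 to 0.84. The luminal epithelium score (13 genes), which marks the labelled tissue, also fell into separate clusters, with 8 tumours from 1.77 to 2.53 and 19 from -1.43 to 0.44. The 4 tumours lowest in neuroendocrine score were among the 8. A score is an average, and not every gene followed it. Foxa1 of the luminal list was lowest in P471, P1276 and P966, though highest in P425. Foxa2 of the neuroendocrine list had P966 and P1276 among its highest tumours. The mitosis score (14 genes) did not give clusters of at least 3 tumours, but P425 stood at -1.79 while the others ran from -0.34 to 0.53. Skeletal muscle markers were highest in P219 (2.52) and P268 (1.72). Schwann cell markers stayed between -0.24 and 0.36, and peripheral neuron markers ran from -1.50 in P471 to 0.94 in P474. The part of these cell types in the levels below was not tested, except where a covariate is named.

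Of the AMPA receptor subunits, Gria2 and Gria4 were high in most tumours and dropped together in a few. Gria2, the subunit that makes AMPA receptors largely impermeable to calcium, had a lowest level of 4.78, a median of 9.67 and a highest of 10.64. Its levels fell apart: P471 at 4.78, P425 at 5.16, P966 at 5.85 and P1276 at 5.98 were low, and the other 23 tumours began at 8.43. Gria4, a subunit of rapidly gating receptors, ran from 5.19 through a median of 8.83 to 10.10 with less of a gap, since the same 4 tumours reached 6.46 and the others began at 7.11. Gria3 took another order, with a lowest level of 5.22, a median of 6.72 and a highest of 9.65; its highest tumours were P1469 at 9.65, P803 at 8.73, P237 and P235 at 8.71, and P569 at 8.29. Gria1, a calcium-permeable subunit when without Gria2, was dim in 19 tumours (4.70 to 7.06, median 5.22). Gria2 and Gria4 were both at or above 5.79 in 23 tumours, Gria2 and Gria3 in 22, and Gria1 and Gria2 in 8. Gria2 was dim in only 2 tumours, P471 and P425, and Gria1, dim in most tumours, was dim in both.

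Among kainate receptor subunits, Grik5 and Grik4, which bind glutamate with high affinity and need a partner of the Grik1 to Grik3 group to form a channel, were dim in none of the tumours. Grik5 hardly varied (7.88 to 9.19, median 8.80, SD 0.37). Grik4 ran from 6.00 through a median of 8.28 to 9.05, and 7 tumours were at 6.33 or below: P803 at 6.00, P471 at 6.05, P1469 at 6.10, P966 at 6.17, P569 at 6.23, and P425 and P1276 at 6.33. These 7 tumours were among the 8 highest in luminal score; the remaining one, P219, had 7.65. Grik2, a channel-forming partner, had a lowest level of 4.74, a median of 8.38 and a highest of 9.79, and was dim in P471, P966, P803 (5.28) and P1469 (5.54). Grik2 and Grik5 were both at or above 5.79 in 23 tumours, and in the other 4 Grik5 was so without Grik2. Grik3 was dim in 11 tumours (4.76 to 7.96) and Grik1 in 21 (3.82 to 7.07).

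The NMDA receptor subunits were mostly dim or steady. Grin2a, the main glutamate-binding subunit of the adult forebrain beside Grin2b, was dim in all 27 tumours (3.93 to 4.96). Grin2b was dim in 17 (4.98 to 7.78, median 5.59). Grin2d, a subunit of early development and of interneurons, was dim in none and varied little (6.21 to 7.92, SD 0.37). Grin2c, known from the cerebellum, was dim in 18 tumours and stood high in a few, with P1394 at 9.20 and P474 at 8.22 against a median of 5.56. Grin3a, a glycine-binding subunit that lowers calcium entry, ran from 5.16 through 7.21 to 9.37, the highest level being in P902. Grid1, a delta receptor that links to cerebellins and neurexins at synapses, ran from 5.58 through 7.24 to 8.47.

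Glra2, the alpha subunit of glycine receptors typical of the fetal nervous system, varied more than any other member (4.34 to 10.62, median 5.78, SD 2.13) and ranked 12 of 22180 genes by SD. It was high in 8 tumours: P235 at 10.62, P502 at 10.26, P217 at 9.73, P237 at 9.65, P268 at 9.57, P503 at 9.33, P609 at 9.11 and P233 at 8.81. The next tumours were P902 at 7.70 and P219 at 7.41, and 14 were dim. Some of the genes near Glra2 on chromosome X were high in much the same tumours: 7 of these 8 tumours were also among the 8 highest for Fancb, a DNA repair gene, and for Mospd2, and 5 of 8 for Gpm6b. Others followed less closely or not at all. Gemin8, next to Glra2 on the other side, shared 4 of 8 and ran from 4.10 to 5.67 in these tumours and from 3.62 to 5.66 elsewhere. Its Spearman rank correlation with Glra2 was 0.56, and those of Trappc2 and Rab9 were 0.51 and 0.46. Ofd1, Asb11, Piga and Asb9 had 0.08, 0.04, 0.18 and -0.27. Fancb ran from 7.69 to 9.76 in the 8 tumours and from 6.12 to 7.86 in the other 19. Mospd2 ran from 8.23 to 10.51 and from 7.39 to 8.45. In both genes the ranges overlapped only at their ends. Fancb also had the largest Spearman rank correlation with Glra2 of all genes over the 27 tumours (0.87), before Gm14204 (0.85) and Gpm6b (0.84). These correlations are descriptions over tumours whose marker scores differed, and the part of cell makeup in them was not tested.

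The other alpha subunits of glycine receptors were dim nearly throughout. Glra1, the adult spinal form, was dim in every tumour (4.04 to 5.23), and Glra3 in all but P609 (6.43; the others from 3.25). Glrb, the beta subunit that anchors the receptor to gephyrin, was dim in none and had a lowest level of 6.05, a median of 8.89 and a highest of 9.95. Glrb was at or above 5.79 together with Glra2 in 13 tumours, with Glra3 in 1 and with Glra1 in none. In the other 14 tumours none of these alpha genes reached that level. Glrb lies next to Gria2 on chromosome 3, and 4 of the 5 tumours highest in either gene were shared (P233, P237, P500 and P609). Grik1, on chromosome 16, shared the same 4 with each of them, so this sharing was not particular to the neighbour.

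Of the GABA-A alpha subunits, Gabra5, known from receptors outside synapses in the hippocampus, was dim in the fewest tumours (4.97 to 8.62, median 7.73, dim in 4 of 27). Gabra4, which forms receptors for lasting inhibition with the delta subunit, ran from 4.27 through 6.59 to 8.65 and was dim in 9. Gabra3 was dim in 17 (4.83 to 8.84) and Gabra2 in 23 (4.36 to 6.85). Beta subunits, which GABA-A receptors usually need, were mostly dim: Gabrb2 was dim in all 27 (4.36 to 5.75) and Gabrb1 in 23 (3.94 to 7.63, median 4.59). The gamma subunits, which give sensitivity to benzodiazepines, were dim in 21 (Gabrg1, 3.87 to 8.48) and 23 (Gabrg3, 4.21 to 7.62) tumours. Gabrd, the delta subunit, stayed between 5.84 and 6.49 in all tumours, just above the line. Gabra4 and Gabrd were both at or above 5.79 in 18 tumours, which are all those where Gabra4 was not dim. With the level 1 log2 unit higher, Gabra4 and Gabrd were both at or above it in 0. At 5.79, Gabra5 and Gabrg3 were both so in 4 tumours, Gabra4 and Gabrb1 in 3, Gabra2 and Gabrb1 in 1, and Gabra3 and Gabrb2 in none.

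Gabrg1, Gabra2, Gabra4 and Gabrb1 follow each other on chromosome 5, with Cox7b2 between Gabra2 and Gabra4; Cox7b2 stayed between 2.55 and 3.36. Gabra2, Gabra4 and Gabrg1 shared 4 of their 5 highest tumours, P237, P219, P1218 and P509. In that order of tumours Gabra4 stood at 8.65, 8.19, 8.08 and 7.90, Gabrg1 at 8.48, 6.83, 6.60 and 7.34, and Gabra2 at 6.85, 6.40, 6.16 and 6.28. Gabra4 was also high in P425, at 8.61, where Gabrg1 (4.40) and Gabra2 (4.84) were dim. Gabrb1 was highest in P1469 at 7.63, P803 at 7.41 and P569 at 6.62, where Gabra2 and Gabrg1 were dim. Gabrb1 shared 2 of its 5 highest tumours with Gabra4 and 5 of its 8 highest. Among those 8 it was dim in P509 at 5.73, P1225 at 5.51, P219 at 5.33 and P1218 at 5.31, so that overlap rests partly on the order of dim levels. Gabra4 shared 5 of its 8 highest with Gabra2 and 4 of 8 with Gabrg1. Of the 630 pairs of members, 10 shared 4 of their 5 highest tumours, 22 shared 3, and none shared 5. No such count was made over all genes. Gabra3 on chromosome X and Gabrg3 on chromosome 7 were another of the 10, with P1225, P509, P619 and P757 in common, so that sharing was not limited to neighbours.

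**Figure D2:**
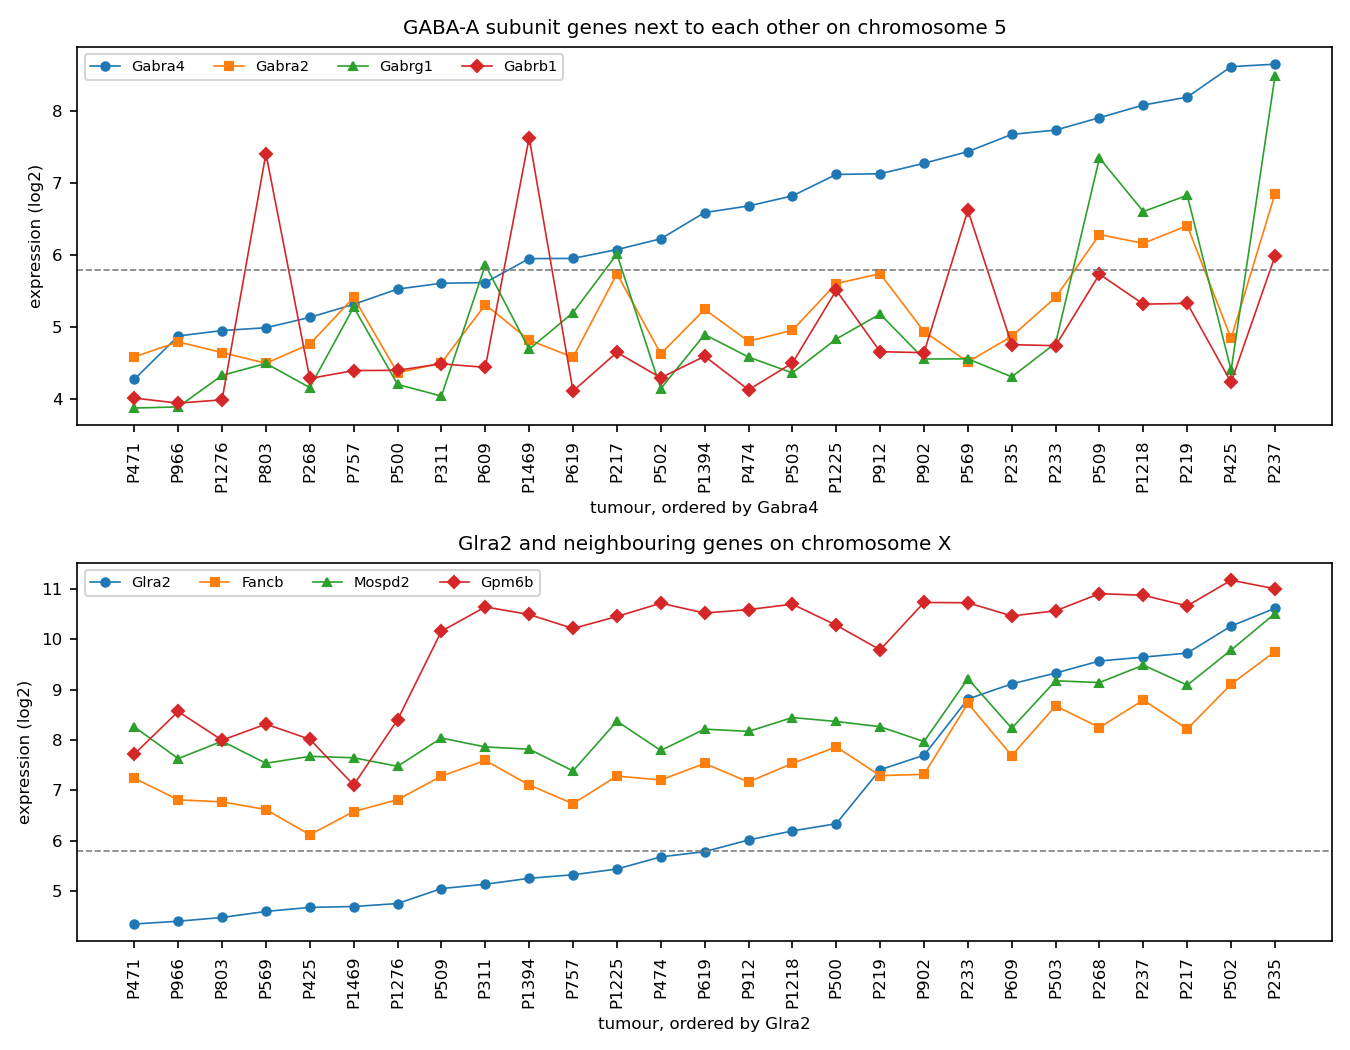
Log2 level in each of 27 tumours of 4 GABA-A subunit genes from chromosome 5 (above, tumours ordered by Gabra4) and of Glra2 with 3 genes beside it on chromosome X (below, ordered by Glra2); the dashed line is the dim level of 5.79. Gabrg1 and Gabra2 rise with Gabra4 in P509, P1218, P219 and P237, Gabrb1 peaks in P803, P1469 and P569, and Fancb and Mospd2 are highest at the right with Glra2.

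Gabrp, the pi subunit, is known from epithelia such as uterus and mammary gland more than from brain. It was dim in 19 tumours (lowest 4.42, median 4.98) and high in P219 at 10.19 and P425 at 9.69, followed by P757 at 7.41, P569 at 7.08 and P1276 at 7.06. The genes whose ranks were most like it over the 27 tumours were Mmp7, a protease of glandular epithelium (Spearman 0.81), Dpp4 (0.74) and Clu (0.74). For Gria2, the remaining one of the 3 members with the largest SD, they were D6Wsu163e (0.83), Rabep1 (0.82) and Jazf1 (0.82).

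Of the nicotinic receptor subunits, Chrnb2 and Chrna4, which together form the main receptor of the brain, were found together in most tumours. Chrnb2 ran from 4.32 through 8.14 to 8.81 and was dim only in P471, P966, P1276 and P425. Chrna4 was dim in no tumour (6.40 to 9.82, median 7.55), and both were at or above 5.79 in 23. Chrna7, which forms receptors on its own, varied little (6.29 to 7.41, SD 0.31). Of the subunits of autonomic ganglia, Chrna3 was dim in 8 tumours (5.48 to 8.21), Chrna5 in 10 (4.47 to 7.38) and Chrnb4 in 23 (4.89 to 6.04). Chrna3 and Chrna5 were both at or above 5.79 in 14 tumours, and Chrna3 and Chrnb4 in 2. Chrna1, the subunit of the muscle end plate, was dim in all 27 (4.04 to 5.19), also in P219 (4.54) and P268 (4.85), where skeletal muscle markers were highest. Over all families, 6 of the 17 pairs of partner subunits were both at or above 5.79 in more than 13 tumours. The same count was not made for other pairs of genes, and 57.5% of all genes had a median at or above 5.79. Where 1 partner was dim in no tumour, as with Grik5, Glrb, Gabrd and Chrna4, the count is that of the other partner alone.

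The 4 tumours lowest in neuroendocrine score lay below all 23 others in 7 of 36 members (19.4%), against 2.79% of 22163 genes. These were Gria2, Gria4, Grik5, Grid1, Glrb, Gabra5 and Chrnb2. Glrb ran from 6.05 to 7.09 in the 4 and from 8.11 to 9.95 in the others, and Chrnb2 from 4.32 to 5.68 against 7.45 to 8.81. The gap was narrower in Grik5 (7.88 to 8.08 against 8.29 to 9.19), Grid1 (5.58 to 6.40 against 6.62 to 8.47) and Gabra5 (4.97 to 5.75 against 5.81 to 8.62). No member lay above all 23 others in these 4 tumours, against 1.6% of genes. These tumours were picked by their score and are not a group of the study, so the counts are a description. The 8 tumours highest in luminal score lay below all 19 others in no member, against 0.6% of genes, and above them in none, against 0.898%.

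**Figure D3:**
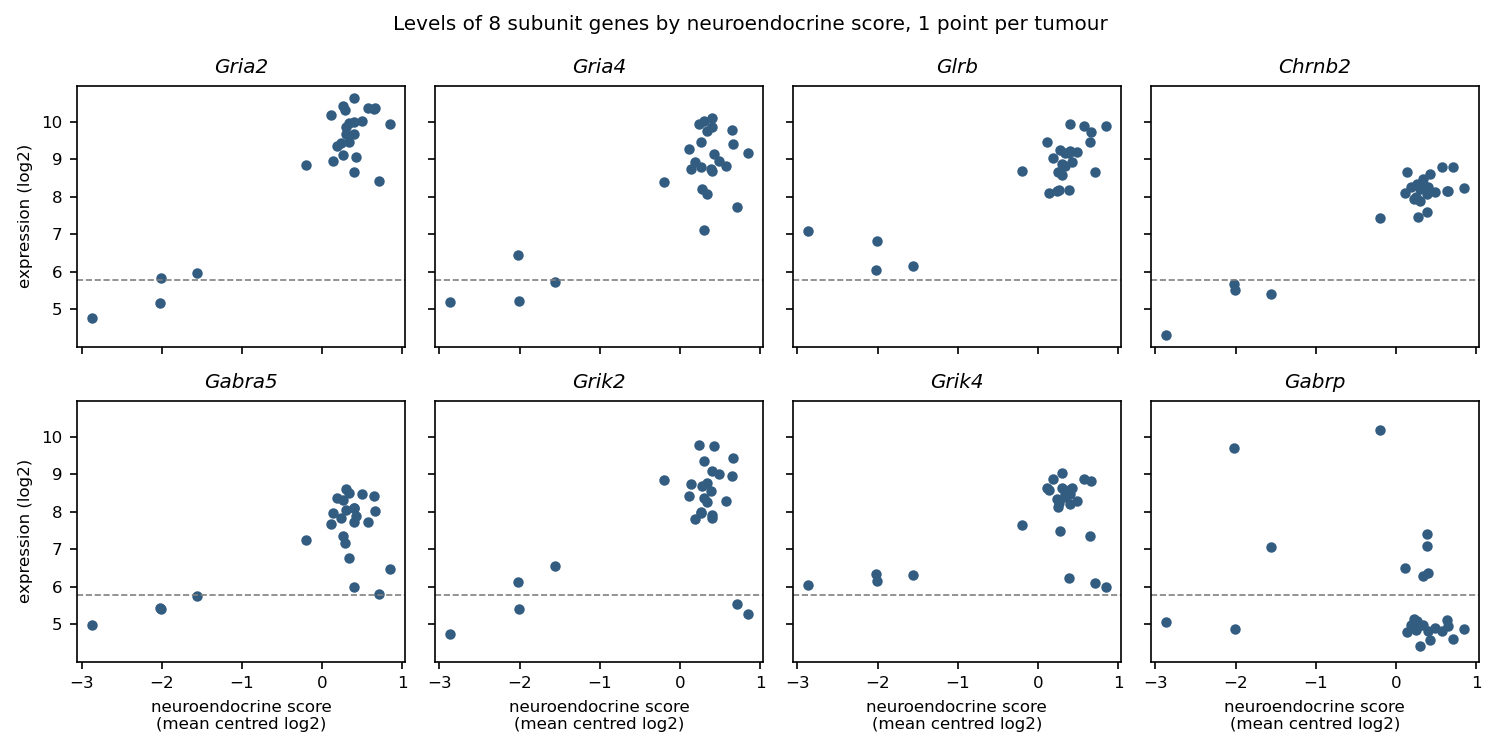
Log2 level of 8 subunit genes (vertical axes) against the neuroendocrine score (horizontal axes, mean centred log2), 1 point per tumour, 27 tumours; the dashed line is 5.79. In Gria2, Gria4, Glrb, Chrnb2 and Gabra5 the 4 tumours at the left lie below all others; in Grik2 and Grik4 tumours at the right are as low, and in Gabrp the highest points are at -0.20 and -2.02.

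Whether members followed the mitosis score, built from genes of cell division, was tested over the 27 tumours with limma across 22166 genes, with Benjamini-Hochberg adjustment over all of them. With the score scaled to an SD of 1, 9 members rose and 3 fell at an adjusted p under 0.05. That is 12 of 36 (33.3%), against 24.6% of all genes, so much of the array followed the score; of all genes 11.9% rose and 12.7% fell. Slopes were above 0 in 27 of 36 members (75.0%, against 41.8% of genes), with a median of 0.16 against -0.02 log2 units per SD.

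Glutamate receptor subunits made up most of those that rose: Gria2 by 0.98 ± 0.25 (SE, n = 27; limma adjusted p = 0.0056), Gria4 by 0.70 ± 0.23, Grik2 by 0.71 ± 0.23, Grik3 by 0.46 ± 0.17, Grik4 by 0.50 ± 0.18, Grik5 by 0.20 ± 0.06 and Grin3a by 0.50 ± 0.19. By family, 4 of 5 kainate, 2 of 4 AMPA and 1 of 5 NMDA subunits rose. Glrb rose by 0.60 ± 0.17 (limma adjusted p = 0.00887) and Gabra5 by 0.66 ± 0.17 (limma adjusted p = 0.00523). Gabrp had a slope of -0.88 ± 0.23 (limma adjusted p = 0.00525), Chrnb4 of -0.12 ± 0.04 (limma adjusted p = 0.0331) and Gabrd of -0.09 ± 0.03 (limma adjusted p = 0.0371). The last pair, both near the dim level, lost the call after quantile normalization and after centring each array on its median. Centring also moved the split of calls to 10 rising and 1 falling among members, and over all genes from 2646 rising and 2814 falling to 3224 and 2098.

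Many of these calls rested on P425. Without it 4 members passed (Grik1, Grik2, Gabra5 and Gabrb2, all rising), and 2645 genes in place of 5460; Gria2 then had a slope of 0.61 and a limma adjusted p of 0.128, and Gabrp a slope of -0.39 with 0.269. Without P425 and P219, the 2 tumours with the highest Gabrp, its slope was -0.08 (limma adjusted p = 0.773). When covariates for endothelium, macrophages, fibroblasts and smooth muscle were added, 9 members rose, 6 of them from the 12, and none fell: Gria2 had a slope of 1.47, Gria4 of 1.17 and Glrb of 0.90, and Gabrp had -0.11 (limma adjusted p = 0.689). Within the 23 tumours of the larger neuroendocrine cluster, Grik1, Grik2 and Gabra5 passed. With the luminal epithelium score as a covariate no member passed, and 1702 genes did. Gabra5 and Grik2 were the only members called in all 27 tumours, without P425 and in the 23 tumours alike, and both lost the call with the luminal covariate (slopes 0.15 and 0.04).

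**Figure D4:**
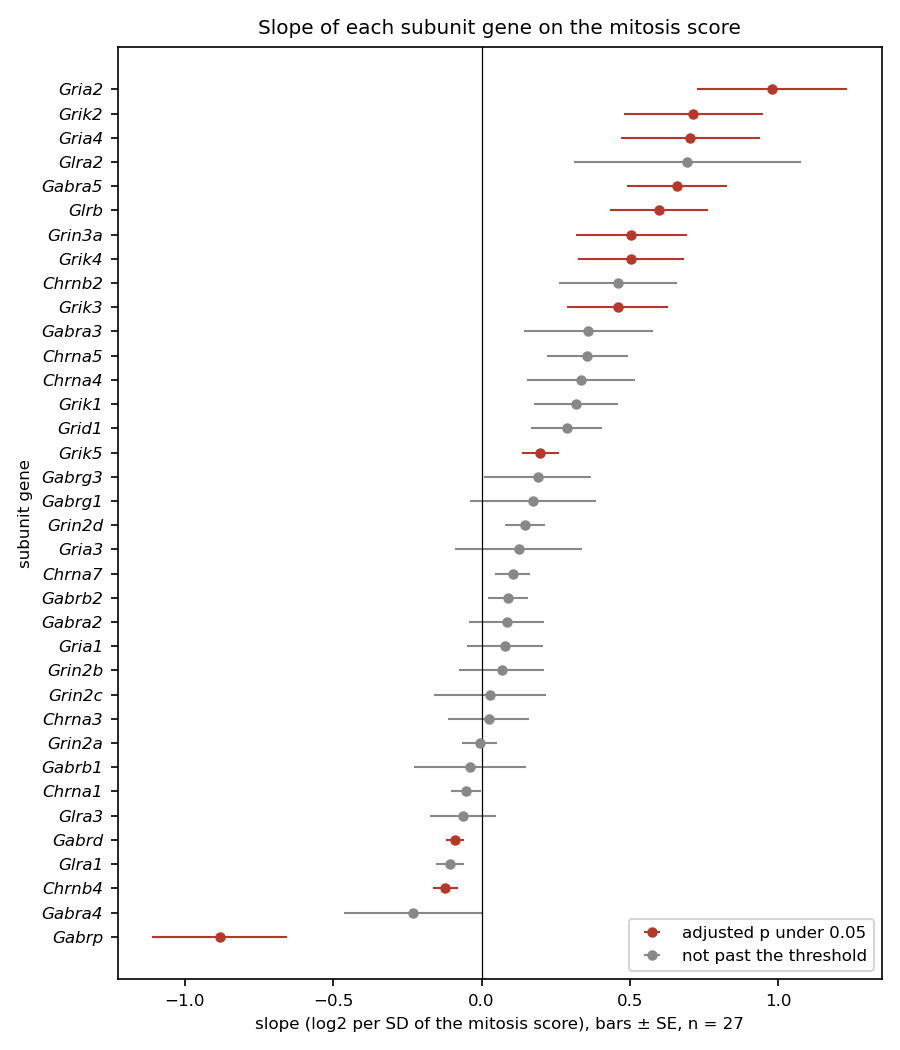
Slope of each of 36 subunit genes on the mitosis score (log2 units per SD of the score, n = 27 tumours), with bars of ± 1 SE; red marks an adjusted p under 0.05. The 9 red genes at the right of 0 include 7 glutamate receptor subunits, and Gabrp lies farthest to the left at -0.88.

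No member followed the neuroendocrine score within the 23 tumours of its larger cluster by limma at an adjusted p under 0.05, where 1 gene of 22163 did, rising (0.00451%). At an unadjusted p under 0.05 there were 7 members of 36, against 11.7% of genes. The steepest were Gabrp at -0.68 ± 0.23 (limma adjusted p = 0.242) and Gabra4 at -0.57 ± 0.19 (limma adjusted p = 0.241). Grik2 at -0.47, Grik4 at -0.36 and Gabra2 at -0.32 also fell. Of these 7, only Glrb at 0.28 ± 0.10 (limma adjusted p = 0.275) and Chrnb2 at 0.16 had slopes above 0. Among all 36 members 21 did (58.3%, against 58.0% of genes). On the luminal epithelium score within its larger cluster of 19 tumours, no member passed in either direction, while 155 genes did (0.699%; 147 rising, 0.663%, and 8 falling, 0.0361%). At an unadjusted p there were 2, Gabrp at 0.44 ± 0.14 (limma adjusted p = 0.234) and Gabra4 at -0.49 ± 0.20 (limma adjusted p = 0.423), against 9.01% of genes. No member was called on either score under any alternative run.

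Proteins that assemble or steer these channels were measured beside them. Of 19 auxiliary and assembly genes, 8 rose on the mitosis score and none fell (42.1%, against 24.6% of all genes); the steepest were Cacng7, a partner of AMPA receptors (0.85 ± 0.19), Neto2, a partner of kainate receptors (0.70 ± 0.09), Tmem35a, a chaperone of nicotinic receptors (0.57 ± 0.18), and Cacng4 (0.44 ± 0.13). Of 19 postsynaptic scaffold genes, 4 rose (21.1%, below the share of all genes): Shank1 by 0.48, Dlg4 by 0.44, Homer1 by 0.37 and Nlgn2 by 0.26. Of 7 ATP-gated P2X channels, a separate family of ligand-gated channels, 5 fell (71.4%), with slopes of -0.61 ± 0.10 in P2rx4, -0.43 in P2rx1, -0.35 in P2rx2 and -0.32 in P2rx5 among the steepest. Of 19 further subunits of the same superfamilies 1 passed (5.26%), Htr3a, a serotonin-gated subunit (0.69 ± 0.25; median level 10.11, from 5.53 to 11.53), and 11 of the 19 were dim in every tumour. These calls also moved with P425 and the luminal score. Without P425, 4 auxiliary genes rose (Cacng7, Cacng8, Neto2 and Tmem35a), 2 scaffold genes rose (Dlg3 and Homer1), 2 P2X genes fell (P2rx1 and P2rx4), and Htr3a was not called. With the luminal covariate Neto2 still rose and P2rx1, P2rx4 and P2rx5 still fell, and no scaffold gene was called. Within the 23 tumours of the larger neuroendocrine cluster, Cacng7 and Cacng8 rose and Neto1 fell among the auxiliary genes, Homer1 rose among the scaffold genes, and of the P2X channels only P2rx1 fell; Neto2 was not called there. The members of these lists that varied most over the tumours were Neto1 (SD 1.35), Cacng7 (1.32) and Cnih3 (1.15) of the auxiliary genes, Dlgap1 (1.19), Dlg4 (0.80) and Grip1 (0.74) of the scaffold, and P2rx4 (0.80), P2rx7 (0.71) and P2rx2 (0.68) of the P2X channels.

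Genes that make or move the transmitters had a median SD of 0.75 over 19 measured, and some stood high in a few tumours. Gad1, which makes GABA from glutamate, had a median of 5.66 and stood at 9.85 in P569, 9.52 in P1469 and 9.12 in P803, with the next tumour at 6.83. Neto1, another partner of kainate receptors, was high in the same 3 tumours, at 7.87, 8.18 and 7.93 in that order, and no higher than 5.12 elsewhere. These are the 3 tumours highest in Gabrb1, and all 3 are in the 8 highest in luminal score while their neuroendocrine scores are in the larger cluster. Gad2, the other GABA-making enzyme, ran from 5.29 to 10.98 with its highest level in P509, and Slc6a11, a GABA transporter, was highest in P1394 at 10.98. Of 19 transmitter genes, Slc12a5, a chloride exporter, rose on the mitosis score (0.26), and Slc12a2, the chloride importer (-0.49), Slc6a13 (-0.25) and Slc17a7 (-0.18) fell; these are 21.1% of the list, below the share of all genes, and without P425 none of the 4 was called. Slc12a2 also rose on the luminal score (0.51 ± 0.11; limma adjusted p = 0.0265).

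The other muscle-type nicotinic subunits differed among themselves. Chrne was dim in all 27 tumours, like Chrna1, and Chrng in 20. Chrnb1 was highest in the 4 tumours lowest in neuroendocrine score, with P1276 at 8.57, P966 at 8.10, P471 at 7.93 and P425 at 5.90, and no higher than 5.21 elsewhere. Chrnd was highest in P1469 at 9.14 and P966 at 8.93. Chrna1, though dim, had its highest levels in P1276 (5.19) and P1469 (5.09). Among the regulators of neuronal genes, Rest had a median of 5.54. It was highest in P471 at 8.31, P966 at 7.85, P1276 at 7.78, P219 at 7.26 and P425 at 6.72. These include the 4 tumours with the lowest Gria2. P219, with more Rest than P425, had Gria2 at 8.86, against 5.16 in P425. A relation of Rest to Gria2 was not tested. Srrm4, a splicing factor of neurons, was lowest in P471 at 5.68. Rcor2, a corepressor partner, rose on the mitosis score (0.35) over all 27 tumours. It was not called with only P425 left out or with the luminal covariate. It did rise within the larger neuroendocrine cluster, which does not hold P425.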

How the data were processed

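RNA from 27 snap-frozen prostate tumours was measured on biotin-labelled 1-colour arrays. The authors deposited log2 expression values (41345 rows, 1.68 to 14.5); they were made with Partek, per the submitters' processing notes. How background was corrected and arrays were normalized was not given in the sources used here. Array medians ran from 5.67 to 5.82, so the values were used as deposited. Arrays give no read depth, and low values lie near background.

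Of the rows, 23521 had 1 gene symbol in the platform's probe table, 1814 several and 16010 none; only the first were used. Slopes were fitted with limma 3.58.1 (lmFit, eBayes with a trend; R 4.3.3), leaving out the score's own genes, and checked on simulated data. Clusters of a score were called with mclust 6.1.1 (equal variances, BIC difference over 6, Ashman's D over 2, at least 3 tumours), and fits then used the larger cluster. Alternatives changed normalization, dim filter, row choice, score scaling, covariates and tumours. Promoters came from RefSeq (GRCm38.p6), whose table also gave the neighbours.

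Members and lists were chosen with earlier results of these data known. All members may be named; of each pathway list the text names genes past the threshold (at most the 4 steepest) and the 3 of largest SD, and for the 3 members of largest SD the 3 genes most alike. Neighbours of Glra2 and values of single tumours were chosen after they were seen. The labels name no batch.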

Additional observations from a re-analysis of the deposited data

How the results depend on the processing

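The 12 members called on the mitosis score became 7 without P425 and P219 (3 of the 12 among them, Gria4, Grik2 and Gabra5), 3 within the larger neuroendocrine cluster (2 of the 12, Grik2 and Gabra5) and 0 with the luminal score as a covariate, while the genes called went from 5460 to 3391, 1856 and 1702. With that covariate the slope of Grik4 turned to -0.10 (limma adjusted p = 0.694). Leaving out each tumour in turn gave 4 members (without P425) to 15 (without P471) and 2645 to 5969 genes. The cause was not tested. On the neuroendocrine score the 1 gene called became 6 with quantile normalization, 94 with centred arrays, 2 with the dim filter, 9 with z-scored genes, 4 without P425 and P219, 147 with the mitosis score as a covariate, and 0 with mean rows, animal number or composition scores as covariates, and 0 to 9 (without P233) leaving out each tumour. On the luminal score the 155 genes became 93 with centred arrays, 91 with the dim filter, 76 with animal number and 0 with composition scores as covariates, and 2 (without P502) to 257 (without P235) leaving out each tumour, with 81 without P268. With the dim level 1 log2 unit higher, 7 members in place of 4 were dim in every tumour and 3 pairs in place of 6 had both partners at or above it in more than 13 tumours. Those that dropped out were Gabra4 with Gabrd (from 18 tumours to 0), Chrna3 with Chrna5 (from 14 to 1) and Gria2 with Gria3 (from 22 to 13). No paired analysis was possible because the labels give 1 group. The 27 arrays limit the precision. The level of 5.79 is a median of row means and not a measure of background. Whether members near or under it stand above background was not tested.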
